A study of Glycine max with 46 samples.

Results

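LEC1, ABI3 and FUS3 are transcription factors of seed maturation, and 6 soybean genes listed for them, a pair for each, were followed over 7 stages of seed drying and germination. They are the LEC1 pair Glyma07g39820 and Glyma17g00950, the ABI3 pair Glyma08g47240 and Glyma18g38490, and the FUS3 pair Glyma16g05480 and Glyma19g27336, 6 of the 54175 genes in the deposited table. The choice was by gene name, made with earlier results of these data known. The regulator names come with the list of members, since the table carries IDs only and 0 of its IDs could be matched to a named annotation. All 6 genes were present, and all 6 passed the filter on low values (a minimum of 10 normalized counts, reached in 3 or more replicates), as did 46537 genes in all.

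RNA was sequenced from seeds of soybean (Glycine max), cultivar Williams 82, which was the only genotype and received no agent other than water. There were 3 stages of desiccation (early, mid and late), then the dry seed, and then 3 times after imbibition, the uptake of water that starts germination: 3, 16 and 27 h. Each stage had 3 biological replicates, and each replicate was sequenced in 2 or 3 runs, which were averaged. The tissue is labelled whole seed while the extraction protocol speaks of embryos, and plants grew in 16 h of light and 8 h of dark at 22 °C. The labels do not say whether replicates came from separate plants, so p-values measure the spread between these samples, which may be partly technical.

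In Arabidopsis, LEC1 is a subunit of the NF-Y complex, which binds CCAAT elements in promoters, and ABI3 and FUS3 are B3-domain proteins that bind the RY element found in promoters of seed genes. Together they switch on storage protein and oil genes, hold back germination and, in the case of ABI3, carry the response to abscisic acid that prepares the embryo for drying. LEC1 and FUS3 are known there as regulators of embryo and mid-maturation development, and ABI3 is known also for its activity late in maturation.

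Recovered depth was 43.82 to 86.52 M reads (M, mega-reads) in 20 of the 21 replicates and 2.53 M in late desiccation replicate 3, which rests on 1 run. There 1 read stands for 8.68 normalized counts, so a value of 0 there allows up to 26 (3 reads, counting error only). Replicates of a stage also differed in the level of quiet genes, the 9974 genes with a mean under 2 normalized counts at 16 and 27 h. Their mean was 0.226, 0.210 and 10.5 in early desiccation replicates 1, 2 and 3, 4.07, 3.11 and 5.37 in mid desiccation, and 10.03, 7.73 and 1.02 in late desiccation. It was 0.427, 3.93 and 2.86 in dry seed and 1.51, 3.45 and 4.92 at 3 h. At 16 and 27 h it lay between 0.386 and 1.55, partly because these genes were chosen as low at those stages. Early desiccation replicate 3, late desiccation replicate 3 and dry seed replicate 1 thus differed from their stage's other replicates.

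The pairs lay at very different abundance and took different courses. Both ABI3 copies stayed between 2017 and 14317 normalized counts from early desiccation to 16 h after imbibition and then fell, at 27 h, to 18.0% and 8.5% of their highest stage means. LEC1 and FUS3 copies never exceeded 69.6 normalized counts in any replicate. The LEC1 copy Glyma17g00950 was higher at 27 h than in dry seed, and no FUS3 copy passed the test in any comparison. Levels are given as normalized counts and are compared between stages, not between genes, because gene lengths are not known. A gene is called lost at a stage where all 3 replicates lay under 10 normalized counts, kept where all 3 lay at 10 or more, and split otherwise. Of the 42 combinations of a gene and a stage, 7 were lost.

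**Figure D1:**
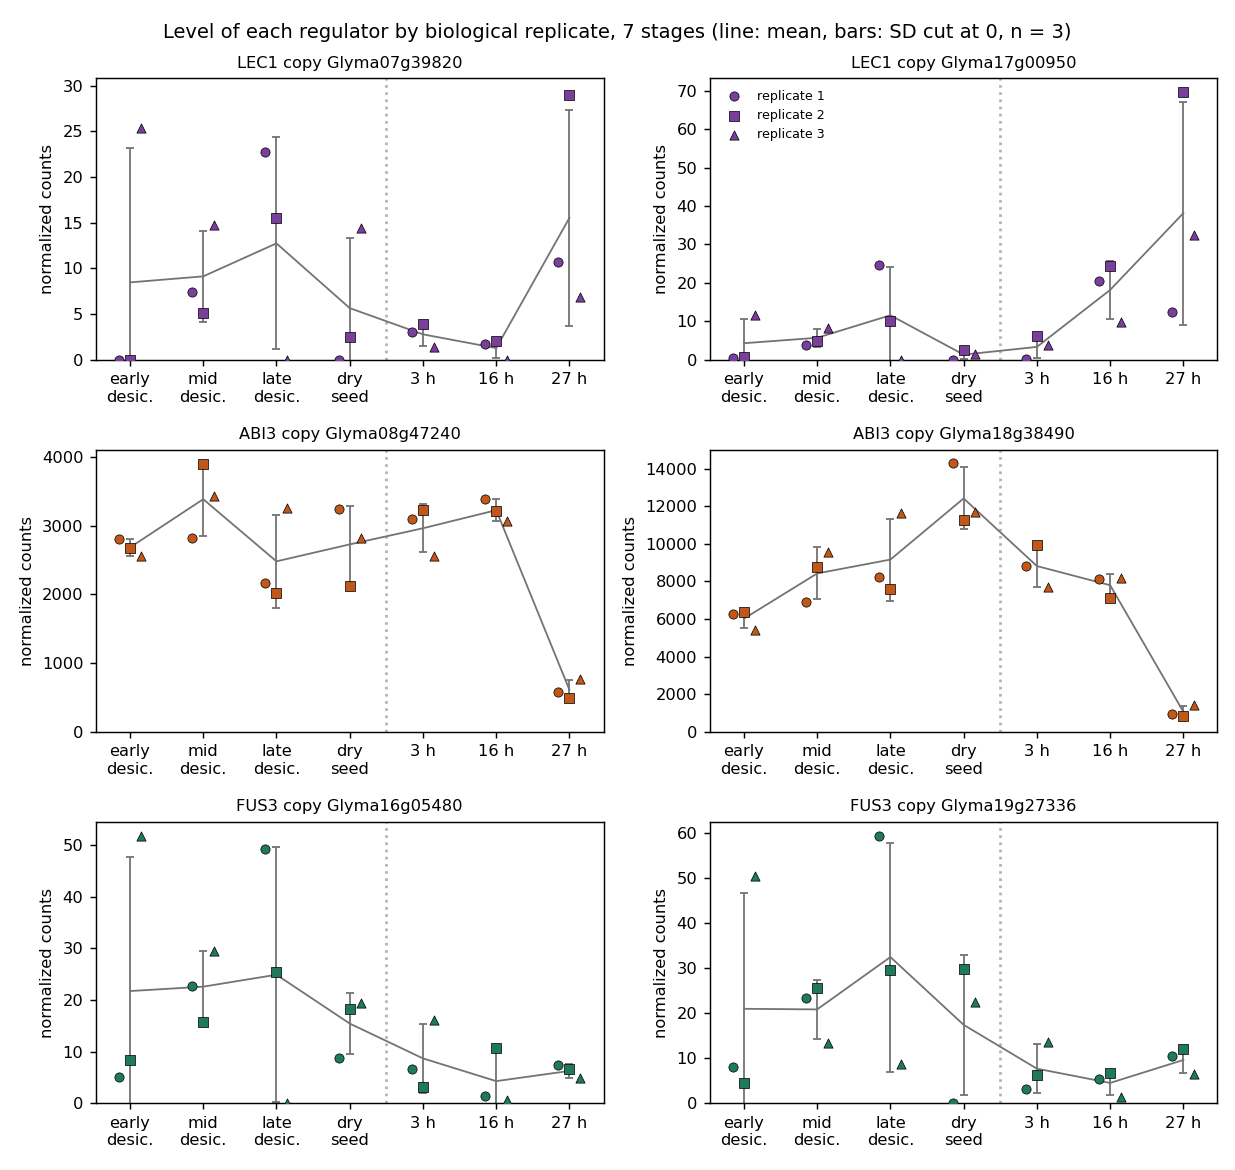
Normalized counts of the 6 genes (1 panel each) over the 7 stages, with 1 point per biological replicate, lines through stage means and bars for SD cut at 0 (n = 3). The ABI3 copies drop between 16 and 27 h, to means of 609 and 1056, while the LEC1 and FUS3 panels run on axes that end below 100 normalized counts.

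ABI3 was kept at all 7 stages in both copies and fell in the last step, between 16 and 27 h. Glyma08g47240 held 3398, 3214 and 3076 normalized counts at 16 h and 571, 486 and 770 at 27 h. All 3 replicates at 27 h lay below the lowest of the 18 replicates of the other stages, 2017. Its means were 3229 ± 161 at 16 h and 609 ± 146 at 27 h (SD, n = 3). The change was -2.43 ± 0.20 on the log2(normalized counts + 1) scale (SE; limma, adjusted p = 6.66e-09).

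Glyma18g38490, the other ABI3 copy, held 8125, 7111 and 8165 normalized counts at 16 h and 918, 839 and 1411 at 27 h. Here too the replicates at 27 h lay below all others, the lowest of which was 5423 in early desiccation. The mean went from 7800 ± 597 to 1056 ± 310 (SD, n = 3), a log2 change of -2.92 ± 0.20 (SE; limma, adjusted p = 3.46e-10). Of all genes tested, 14.8% were called in this step (adjusted p under 0.05 and at least 2-fold) and 8.35% fell, and 2 of the 6 regulators, both ABI3 copies, were among those that fell. Ranked by log2 change, 1072 of the 46537 genes fell further than Glyma08g47240 and 674 further than Glyma18g38490. In whole seeds, fewer cells of a type and less RNA per cell cannot be told apart.

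At 27 h the ABI3 copies were also below dry seed, by -2.17 ± 0.20 for Glyma08g47240 (log2, SE; limma, adjusted p = 1.06e-08) and by -3.59 ± 0.20 for Glyma18g38490 (adjusted p = 3.94e-12). Over all genes, 32.2% were called between dry seed and 27 h, 13.1% as lower. Both falls were called under every alternative tried. The level at 27 h was far above the lost level in every replicate, so ABI3 transcript was reduced and still present.

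Before that step Glyma08g47240 held a narrow band of normalized counts. Its stage means were 2685 ± 123 in early, 3389 ± 541 in mid and 2483 ± 681 in late desiccation (SD, n = 3). They were 2730 ± 564 in dry seed, 2966 ± 353 at 3 h and 3229 ± 161 at 16 h. Early desiccation, at most 2809, lay just below mid desiccation, at least 2828. Replicates of the later neighbouring stages overlapped, and none of the 5 steps was called. Dry seed and early desiccation differed by 0.00 ± 0.20 on the log2 scale (SE; limma, adjusted p = 0.996). Scaled to reads per 1 M reads, its means were 148 ± 14.6 at 3 h and 227 ± 12.7 at 16 h (SD, n = 3). The log2 change between these times was 0.13 in the reported fit (limma, adjusted p = 0.707). With libraries scaled to equal totals it was 0.55 (limma, adjusted p = 0.0206). Whether its level moved thus depends on the scaling, and neither change reached 2-fold.

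Glyma18g38490 rose over drying and was highest in dry seed. It held 6257, 6373 and 5423 normalized counts in early desiccation, 6897, 8796 and 9595 in mid and 8262, 7585 and 11657 in late desiccation. In dry seed it held 14317, 11279 and 11687, and at 3 h 8824, 9945 and 7701. All dry seed replicates lay above all early and mid desiccation replicates and above all replicates at 3 h, and they overlapped with late desiccation through its replicate 3. Dry seed was 1.04 ± 0.20 above early desiccation (log2, SE; limma, adjusted p = 0.000857), 1 of 6 members called where 7.61% of all genes were, 2.67% as higher and 4.94% as lower. That balance over all genes turned with TMM scaling, to 6.41% higher and 2.36% lower, and without early desiccation replicate 3, to 9.47% and 6.45%. The change sits at the 2-fold threshold. It was 0.94 without dry seed replicate 1, 0.94 with run 1 alone and 0.97 without early desiccation replicate 3, also with late desiccation replicate 3 left out. It was 0.86, the lowest, with all 3 of these replicates left out. The adjusted p stayed under 0.05 in each.

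No single step before 16 h passed the test for Glyma18g38490. The change from late desiccation to dry seed was 0.46 ± 0.20 (log2, SE; limma, adjusted p = 0.174) and that from dry seed to 3 h was -0.49 ± 0.20 (adjusted p = 0.166). Across the 7 stages together both ABI3 copies changed (limma F test, adjusted p = 9.37e-09 for Glyma08g47240 and 5.28e-11 for Glyma18g38490), and they were 2 of 6 members called where 37.5% of all genes were.

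**Figure D2:**
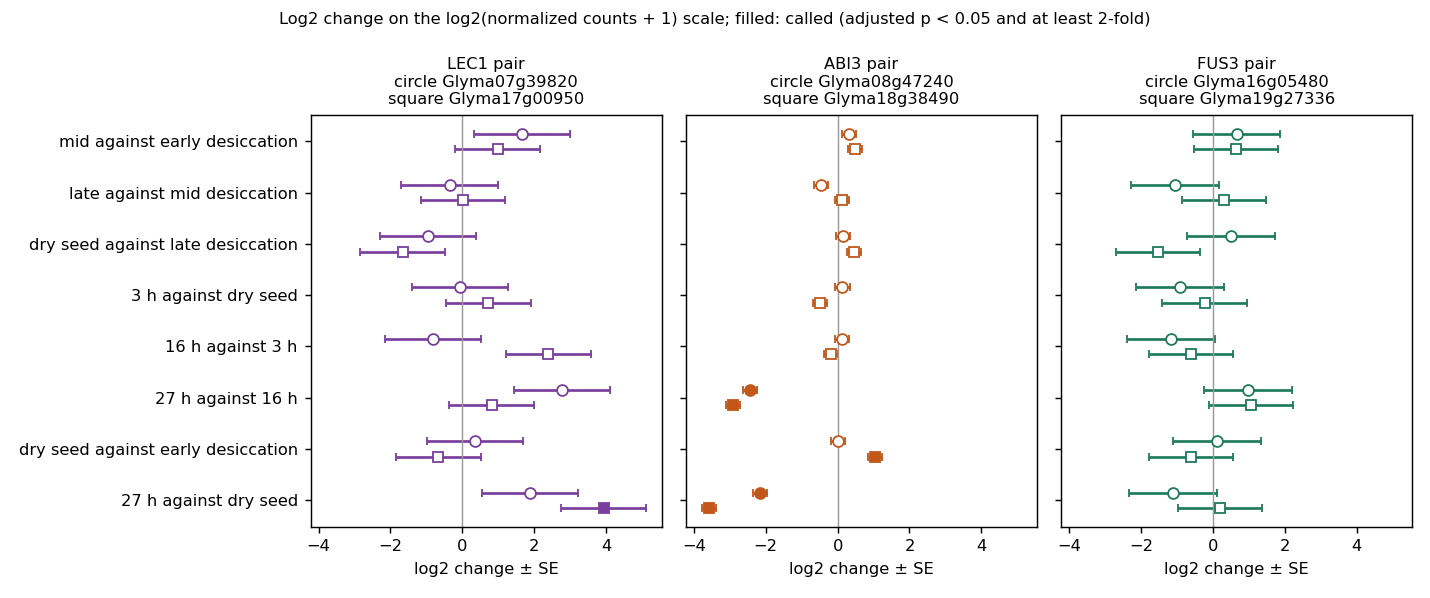
Log2 changes with SE for the 8 comparisons (rows) in the LEC1, ABI3 and FUS3 pairs (panels), from the limma fit over all stages, filled where called. The ABI3 bars are short and their filled points lie at -2.17 to -3.59 for 27 h, while the LEC1 and FUS3 bars are wide and 1 point among them is filled, Glyma17g00950 at 3.93.

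The balance between the ABI3 copies shifted with stage. The ratio of Glyma18g38490 to Glyma08g47240 was 2.23, 2.37 and 2.12 in early desiccation replicates 1, 2 and 3 and 4.42, 5.31 and 4.14 in dry seed. It was 1.61, 1.73 and 1.83 at 27 h, below every other replicate. Stage means ran from 2.24 ± 0.129 in early and 2.50 ± 0.276 in mid to 3.71 ± 0.127 in late desiccation and 4.62 ± 0.610 in dry seed (SD, n = 3). They then went to 2.98 ± 0.119 at 3 h, 2.42 ± 0.222 at 16 h and 1.72 ± 0.111 at 27 h. Dry seed, late desiccation and 3 h did not overlap with each other, while early desiccation, mid desiccation and 16 h did. A ratio within a replicate does not depend on the scaling of that library. It was not tested, and how reads matching both copies were counted is not given in the sources used here, so the split between copies is uncertain.

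**Figure D3:**
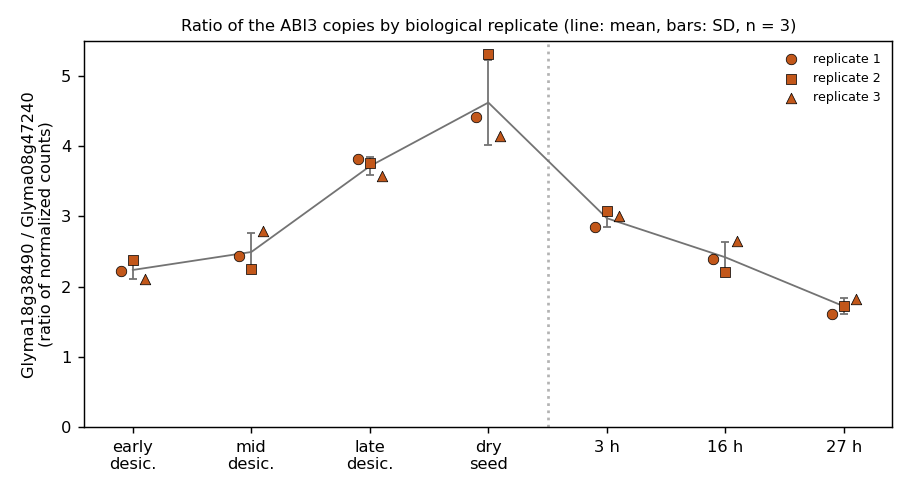
Ratio of normalized counts of the 2 ABI3 copies (Glyma18g38490 over Glyma08g47240) in each biological replicate by stage, with the mean and SD (n = 3). The ratio is highest in dry seed, 4.14 to 5.31, and lowest at 27 h, 1.61 to 1.83.

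LEC1, the NF-Y subunit, was under the lost level in most replicates before imbibition and, with runs averaged, in all at 3 h. Before imbibition, Glyma07g39820 reached 10 normalized counts in 5 of 12 replicates and Glyma17g00950 in 2 of 12. In late desiccation replicate 2, Glyma17g00950 stood at 9.99, and at 18.8 (60 reads) with runs pooled by reads in place of averaged. Late desiccation replicate 3 counts as under 10 for both copies, though 0 there allows up to 26. Glyma17g00950 held 0, 2.44 and 1.59 normalized counts in dry seed replicates 1, 2 and 3 and 0.168, 6.09 and 3.82 at 3 h, and was lost at both stages. With runs pooled by reads in place of averaged, 3 h replicate 2 stood at 10.7 (36 reads), so 3 h was then split.

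At 16 h it held 20.4, 24.4 and 9.72, and at 27 h 12.5, 69.6 and 32.4, where it was kept. All replicates at 16 and 27 h lay above all replicates of dry seed and 3 h. The quiet-gene means were chosen to be low at 16 and 27 h, and the part of background in this difference was not tested.

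Glyma17g00950 was 3.93 ± 1.18 above dry seed at 27 h (log2 of normalized counts + 1, SE; limma, adjusted p = 0.00996). Of all genes, 19.1% rose in this comparison, and 1795 rose further on this scale. The mean was 38.2 ± 29.0 at 27 h against 1.34 ± 1.24 in dry seed (SD, n = 3), from 504 and 13 reads over 3 replicates. The call was lost without 27 h replicate 2, the highest, where the change was 3.36 with an adjusted p of 0.0568. The steps from 3 h to 16 h (2.40 ± 1.18, adjusted p = 0.228) and from 16 h to 27 h (0.82 ± 1.18, adjusted p = 0.723) were not called, nor was the F test across stages (adjusted p = 0.0741). Across stages Glyma17g00950 was called in 9 of 33 alternatives. Its adjusted p there ran from 9.58e-05 to 0.223 (limma, edgeR or DESeq2).

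During drying Glyma17g00950 varied widely within stages, and its replicates in early, mid and late desiccation overlapped. It held 0.532, 0.838 and 11.6 normalized counts in early desiccation, 3.86, 4.98 and 8.34 in mid desiccation, where it was lost, and 24.8, 9.99 and 0 in late desiccation. At the depth of the last of these replicates, 0 allows up to 26. In early, mid and late desiccation the replicate with the highest value was also that with the highest quiet-gene mean, 10.5, 5.37 and 10.03. The same held in dry seed, with 2.44 in replicate 2 at a quiet-gene mean of 3.93. The part of that background in these values was not tested.

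The other LEC1 copy, Glyma07g39820, was lost at 3 h, with 3.04, 3.96 and 1.37 normalized counts, and at 16 h, with 1.77, 2.08 and 0. At 27 h it held 10.7, 29.0 and 6.89, above all replicates of those 2 stages. The change from 16 h to 27 h was 2.78 ± 1.34 (log2, SE) and was not called (limma, adjusted p = 0.164). It was called in 4 of 34 alternatives, among them the fit of those 2 stages alone and run 1 alone, and its adjusted p ran from 0.00214 to 0.421 over all alternatives. The change from dry seed to 27 h was 1.89 ± 1.34 and was not called (adjusted p = 0.312).

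Before imbibition Glyma07g39820 was split at all 4 stages. It held 0, 0 and 25.4 normalized counts in early desiccation, 7.45, 5.18 and 14.8 in mid and 22.7, 15.5 and 0 in late desiccation, and 0, 2.52 and 14.5 in dry seed. In 3 of these stages the replicates thus ran from 0 to a value above those of 27 h replicates 1 and 3. The 0 in late desiccation came from replicate 3, at whose depth 0 allows up to 26. The spread within that stage is therefore uncertain. The early desiccation value of 25.4 came from the replicate with a quiet-gene mean of 10.5, and the dry seed value of 0 from that with 0.427.

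FUS3, the B3-domain regulator, was mostly at or above the lost level before imbibition and mostly under it afterwards. Glyma16g05480 reached 10 normalized counts in 8 of 12 replicates before imbibition, with a median of 18.8, and in 2 of 9 after it, with a median of 6.58. Glyma19g27336 reached it in 8 of 12, with a median of 23.0, and in 3 of 9, with a median of 6.46. In the reported fit neither changed by the test in any of the 8 comparisons or across stages (limma F test, adjusted p = 0.582 and 0.579). Across stages Glyma16g05480 was called in 3 of 33 alternatives and Glyma19g27336 in 1. Their adjusted p there ran from 0.00146 to 0.819 and from 0.000518 to 0.885 (limma, edgeR or DESeq2). Against early desiccation, Glyma19g27336 was called in 1 of 34 alternatives for mid desiccation and in 1 for dry seed.

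Mid desiccation was the only stage at which both FUS3 copies were kept. Late desiccation was split in both copies through replicate 3 alone, where 1 read stands for 8.68 normalized counts. There Glyma16g05480 held 22.6, 15.7 and 29.4 normalized counts and Glyma19g27336 held 23.5, 25.7 and 13.5. In early desiccation the values were 5.15, 8.40 and 51.6 for Glyma16g05480 and 8.00, 4.44 and 50.6 for Glyma19g27336. Both were thus high in replicate 3 alone, the replicate with the high quiet-gene mean.

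In late desiccation Glyma16g05480 held 49.2, 25.4 and 0 normalized counts and Glyma19g27336 held 59.3, 29.6 and 8.68, the last of these being a single read. In dry seed they held 8.69, 18.2 and 19.4, and 0, 29.8 and 22.6. Dry seed replicate 1 was the lowest of its stage in both copies. The values of late desiccation replicate 3 were the lowest as listed, but at its depth 0 allows up to 26 and 1 read up to 48.4 (exact 95% Poisson bound), both above replicate 2. These 2 replicates also had the lowest quiet-gene means of their stages, 0.427 and 1.02. The part of that background in the FUS3 values was not tested.

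After imbibition Glyma16g05480 held 6.74, 3.21 and 16.1 normalized counts at 3 h, 1.501, 10.7 and 0.685 at 16 h, and 7.43, 6.58 and 4.84 at 27 h, where it was lost. Glyma19g27336 held 3.20, 6.23 and 13.7 at 3 h, 5.34, 6.80 and 1.51 at 16 h, where it was lost, and 10.5, 12.03 and 6.46 at 27 h. With runs pooled by reads, Glyma19g27336 stood at 10.8 in 16 h replicate 2, which was then split. The replicates at 27 h lay below those of dry seed for Glyma16g05480. Those of the other stages, and all 3 stages for Glyma19g27336, overlapped with dry seed. From dry seed to 27 h the change was -1.12 ± 1.22 for Glyma16g05480 (log2, SE; limma, adjusted p = 0.561) and 0.21 ± 1.17 for Glyma19g27336 (adjusted p = 0.934).

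**Figure D4:**
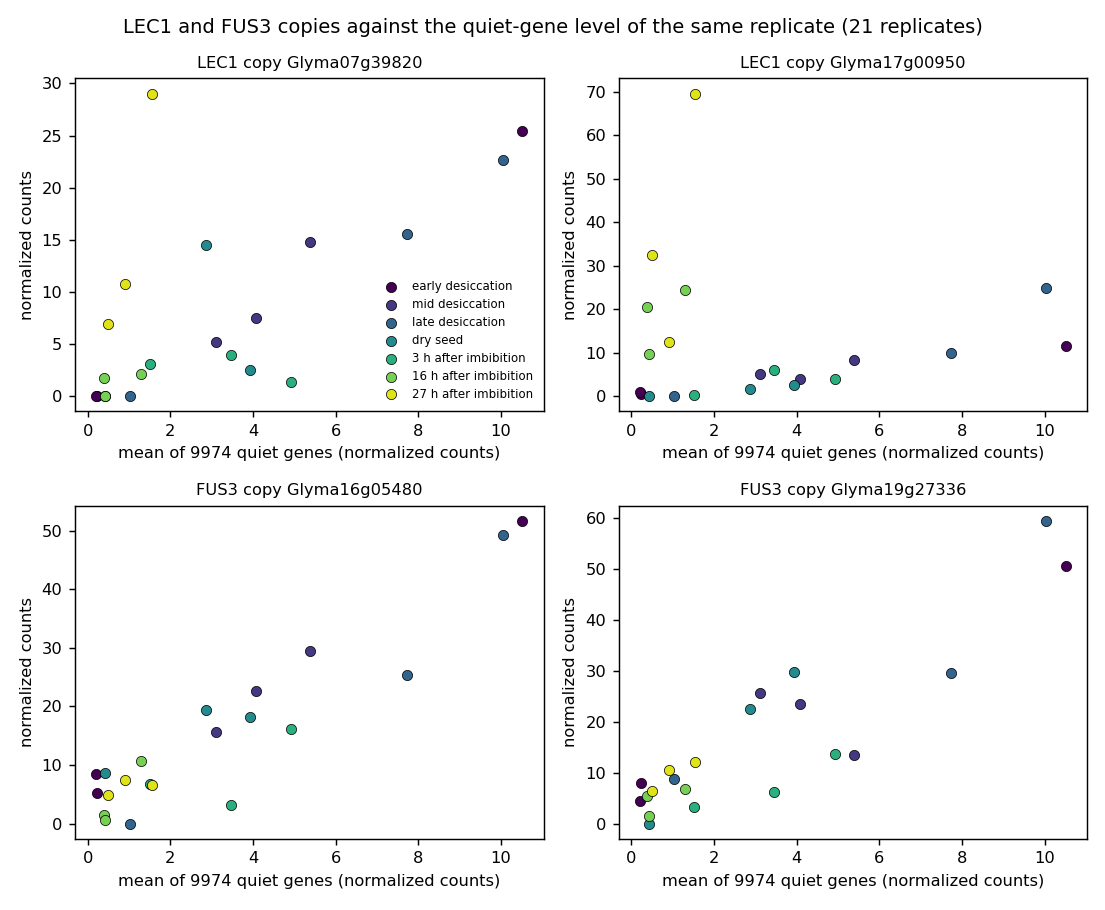
Normalized counts of the 4 LEC1 and FUS3 copies (1 panel each) against the mean of the quiet genes in the same replicate, with 1 point per biological replicate coloured by stage. The 2 highest values of each FUS3 copy come from early desiccation replicate 3 and late desiccation replicate 1, whose quiet-gene means are 10.5 and 10.03, while the 2 highest Glyma17g00950 values come from 27 h at means of 0.493 and 1.55.

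In 5 of the 8 comparisons limma called none of the 6 genes. These were mid against early desiccation, late against mid desiccation, dry seed against late desiccation, 3 h against dry seed and 16 h against 3 h, where 0.0494%, 0.627%, 4.04%, 3.4% and 7.04% of all genes were called. At an unadjusted p under 0.05 the count was 1 of 6 in each of the first 4 and 0 of 6 in the last, where 4.64%, 9.8%, 21%, 16.9% and 23.1% of all genes reached it. The gene with an unadjusted p under 0.05 was an ABI3 copy each time. The 2 count-based tools, edgeR and DESeq2 on recovered reads, also called 0 of 6. In the same order of comparisons, edgeR called 77, 1005, 3182, 1247 and 3121 of the 46537 genes. DESeq2 called 69, 614, 2813, 2077 and 4397.

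Within pairs, the copies ran together to different degrees over the 21 replicates. Pearson r of log2(normalized counts + 1) was 0.94 for the ABI3 copies, with a Spearman rho of 0.61. It was 0.61 for the LEC1 copies (rho 0.60) and 0.66 for the FUS3 copies (rho 0.75). These are descriptions over replicates that share stage, depth and quiet-gene level. Without the 27 h replicates the ABI3 copies had r of 0.23 and rho of 0.39 over 18 replicates. Both copies reached 10 normalized counts in the same replicate 4 times for LEC1 and 9 times for FUS3, too few for a ratio by stage.

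The genes whose course was most like that of each regulator were sought among 16766 other genes with a mean of at least 100 normalized counts, by Pearson r over the 21 replicates. For Glyma18g38490 these were Glyma13g17406 and Glyma18g01000, both with r of 0.98, and 1054 genes had r of at least 0.9. Glyma18g01000 had a mean of 6693 normalized counts in dry seed and 105 at 27 h. For Glyma08g47240 they were Glyma02g46580 (r = 0.99) and Glyma14g02090 (r = 0.98), and 548 genes had r of at least 0.9. Glyma02g46580 went from a mean of 4738 at 16 h to 790 at 27 h.

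For Glyma17g00950 the most alike were Glyma07g07870 and Glyma02g05760, both with r of 0.92, and 9 genes had r of at least 0.9. Glyma02g05760 had a mean of 9.26 normalized counts in dry seed, 103 at 16 h and 512 at 27 h. The other LEC1 copy, Glyma07g39820, was closest to Glyma13g22450 (r = 0.89) and Glyma10g26450 (r = 0.87). Glyma16g05480 was closest to Glyma02g38091 (r = 0.87) and Glyma18g13105 (r = 0.85), and Glyma19g27336 to Glyma08g23760 and Glyma02g34070 (both r = 0.87). For these last 3 regulators no gene reached 0.9. When ranked on the 7 stage means instead, Glyma13g17406 alone of the alike genes named stayed among the 2 closest to its regulator. On those means r of Glyma02g34070 was 0.61, so the choice of genes depends on the ranking. Glyma13g22450, Glyma18g13105, Glyma08g23760 and Glyma02g34070 had their highest stage mean in late desiccation, where quiet genes were high in replicates 1 and 2.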

How the data were processed

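Per the labels' protocols, total RNA came from a Qiagen kit and Illumina TruSeq libraries were sequenced. Trimmomatic 0.38 and HISAT2 are listed in the submitters' processing notes. The read counter, its strand setting, the build and the annotation were not given in the sources used here, so reads of overlapping, antisense or near-identical genes may be misassigned. The deposited signal values are read counts that the authors divided by a DESeq size factor per library, per the name of the table. All values (100.0%) were whole multiples of 1 read within 0.001 reads, so reads were recovered. Of 46 samples, 45 matched a column, and 1 column that matched no label was not used. No table row is without a gene ID.

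Runs were averaged to 21 biological replicates and tested with limma 3.58.1 (R 4.3.3) on log2(value + 1), which understates changes of low genes, fitting a mean for each stage with robust, trended moderation of the variance. Benjamini-Hochberg adjustment ran over all 46537 genes tested in each comparison. Genes were called at adjusted p under 0.05 and at least 2-fold. The procedure was tested on simulated data, with changes planted only in genes of middle level and no replicate differing from its stage. That range lay above the dry seed means of the LEC1 and FUS3 copies and below that of Glyma18g38490. The simulation thus does not show how calls behave for those genes. On recovered reads, edgeR 4.0.16 called 13984 genes between dry seed and 27 h and DESeq2 1.42.0 called 16088.

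The genes named are the 6 regulators and, for each, the 2 others of highest correlation. Ranking those others on the 7 stage means was an alternative. Members and lists were chosen with earlier results of these data known. Of 59048 genes in the Glycine_max_v4.0 annotation 0 could be matched to the IDs, so positions, sequences and a storage protein list were not used. Alternatives were TMM scaling, a pseudocount of 5, run 1 alone, runs pooled by reads, no filter, no fold threshold, a replicate block, compared stages alone, edgeR, DESeq2, other lost levels, leaving out each replicate and leaving out both early and late desiccation replicate 3. Scaling to equal totals and leaving out dry seed replicate 1 with these 2 were added after seeing the data, as was pooling runs for the lost calls.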

Additional observations from a re-analysis of the deposited data

How the results depend on the processing

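Of 8 calls of a gene in a comparison, 6 held under every alternative. The exceptions were Glyma18g38490 over drying and Glyma17g00950 at 27 h against dry seed. Of 46 results not called, 34 were called under no alternative. Leaving out both early and late desiccation replicate 3 gave 1 call of 6 for mid against early desiccation, 1 for dry seed against late desiccation, 0 for dry seed against early desiccation, 1 for 16 h against 3 h and 5 across stages, where 38.7%, 21.9%, 27%, 15.1% and 81.7% of all genes were called. Leaving out dry seed replicate 1 as well gave 3, 1, 2, 1 and 6, where 44.1%, 10.3%, 47.1%, 26.3% and 86.1% of all genes were called. It also turned Glyma19g27336 in dry seed against early desiccation from -0.60 to 1.95 (log2; limma, adjusted p = 0.0197). The cause was not tested. Fitting compared stages alone gave 1 call for 16 h against 3 h (18.9% of all genes). Run 1 alone gave 0 for dry seed against early desiccation, where 4026 of 46537 genes were called. DESeq2 gave 4 across stages, where 42.8% of all genes were called. Leaving out 1 replicate gave 0 to 1 for dry seed against early desiccation, where 2712 to 7407 of 46537 genes were called. Lost combinations numbered 7 at a level of 10, 3 at 5, 15 at 20, 7 to 11 without 1 replicate, and 5 with runs pooled by reads, which ended Glyma17g00950 at 3 h and Glyma19g27336 at 16 h.

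Same-numbered replicates correlated at r from -0.42 to 0.55 over 63 pairs, with 19 above 0.1 and the own number closest in 50 of 126. Early and mid desiccation were a pair of stages with all 3 above 0.1 (0.37, 0.10 and 0.55). There the block gave 0 member calls too, and 30 calls over the 46537 genes. With the number as a replicate block 2, 3 and 1 members were called at 27 h against 16 h, at 27 h against dry seed and over drying, as without it. Over the 46537 genes the block gave 6709, 14675 and 3455 calls in these comparisons. Over all genes, 49 of 305 counts moved by over 1.5 times. They ran from 3 to 20502 (23 in the reported fit) for mid against early desiccation, 0 to 1562 (292) for late against mid, 1084 to 10169 (1879) for dry seed against late and 2477 to 21922 (3541) for dry seed against early desiccation. They ran from 1018 to 3096 (1583) for 3 h against dry seed, 2207 to 12236 (3275) for 16 h against 3 h, 5604 to 13734 (6890) for 27 h against 16 h and 15854 to 40072 (17459) across stages. With TMM the median log2 change over all genes shifted by 0.28, -0.32 and 0.34 over the 3 drying steps, and equal totals moved it by 0.60 for 27 h against dry seed, where the ABI3 falls were still called. The LEC1 and FUS3 copies had 665 to 1221 reads per gene over all replicates, and how much of their spread is counting error was not tested.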

Other observations

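Runs of the same replicate gave different levels for the regulators. In the 20 replicates with a first and a second run, Glyma18g38490 was higher in run 1 in 20, with a median ratio of run 1 to run 2 of 1.20, and Glyma08g47240 in 18, with a median of 1.13. The LEC1 and FUS3 copies were higher in run 1 in 3 to 5 of 20, with medians of 0.530 to 0.755. These differences were not tested.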
